A study of Mus musculus with 15 samples.

Results

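Hbb-bs and Hbb-bt, which encode adult beta globin, Hba-a1 and Hba-a2, which encode adult alpha globin, and Alas2, which encodes the erythroid form of the first enzyme of haem synthesis, were followed in mouse quadriceps muscle as a readout of blood in the tissue. They were chosen by symbol: the Ensembl identifiers of the table, without their versions, were matched to GENCODE gene names, and 5 genes of 50686 in the table carried these symbols. Of the 50686 genes, 27721 had at least 1 read in a library, and all 5 chosen genes had reads in every library. Total RNA-seq was made from the quadriceps of C57BL/6 offspring at 10 months of age, with 3 libraries in each of 5 groups that differ in what the parents ate and whether the dam ran on a wheel in pregnancy. MHS are offspring of mothers fed a 60% high-fat diet and kept sedentary, with a lean father. MHE are offspring of mothers fed the same diet, with a lean father and an unlocked wheel in pregnancy. PHS are offspring of fathers fed the 60% high-fat diet and lean, sedentary dams. PHE are offspring of fathers fed that diet and lean dams with an unlocked wheel. NCS are offspring of chow-fed parents with sedentary dams, and they served as controls for both arms. The parents in the diet arms began the diet at 8 weeks of age and ate it for 6 weeks, and the lean mates were 14 weeks old. All offspring ate chow and were sedentary from the day after birth, and the groups are defined by their parents. The sample titles also carry a code whose meaning the labels do not give, and its first part runs with the groups: it is F7 in all 3 MHS libraries, F3, F5 and F7 in MHE, F2, F2 and F4 in PHS, F1, F2 and F6 in PHE, and F1, F1 and F6 in NCS. No code is common to PHS and NCS, so in that pair the code and the group can be told apart only through the other groups. Litters are not given in the labels, so p-values measure the spread between these libraries only.

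Haemoglobin is a tetramer of a pair of alpha chains and a pair of beta chains, each holding a haem group that binds oxygen. Globin messages are made in huge amounts by erythroid precursors and persist in reticulocytes, the young red cells in blood, which have no nucleus. ALAS2 joins glycine to succinyl-CoA in erythroid mitochondria, while its relative ALAS1 does so in other tissues, muscle among them. In bulk muscle the level of these messages follows how much blood and how many young red cells came with the sample, and fewer such cells cannot be told apart from less RNA per cell.

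The 4 globin genes form pairs of near-identical copies. In GENCODE M21 on GRCm38 (mm10), Hbb-bs (ENSMUSG00000052305.6) lies on the minus strand at chr7:103826534-103828096 and Hbb-bt (ENSMUSG00000073940.3) on the minus strand at chr7:103812524-103813996. Hba-a1 (ENSMUSG00000069919.7) lies on the plus strand at chr11:32283511-32284465 and Hba-a2 (ENSMUSG00000069917.7) on the plus strand at chr11:32296489-32297298. Alas2 (ENSMUSG00000025270.13) lies on the plus strand at chrX:150547375-150570638. Each globin transcript has 3 exons, and the Alas2 transcript used here has 11. The stretches below are from the last coding exon and show the only base at which the coding sequence of each copy differs from its partner, written as a capital. They are read 5′ to 3′ on the gene's strand.
Hbb-bs, chr7:103826665-103826722: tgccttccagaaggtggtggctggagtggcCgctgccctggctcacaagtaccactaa
Hbb-bt, chr7:103812656-103812713: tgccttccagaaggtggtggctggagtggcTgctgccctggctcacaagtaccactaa
Hba-a1, chr11:32284313-32284372: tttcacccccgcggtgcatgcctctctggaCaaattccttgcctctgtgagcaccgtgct
Hba-a2, chr11:32297130-32297189: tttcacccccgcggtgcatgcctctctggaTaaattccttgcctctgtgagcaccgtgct

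The beta copies differ at 1 base of 444 coding bases, C417T from Hbb-bs to Hbb-bt, the third base of codon 139. The alpha copies differ at 1 base of 429 coding bases, C381T from Hba-a1 to Hba-a2, the third base of codon 127. Positions count from 1 at the first base of the start codon. Coding identity is thus 99.77% in each pair, and what tells the copies apart lies mainly in the untranslated ends. Of all windows of 100 bases, the read length, that fit in the transcript, 62.6% of those of Hbb-bs and 54.8% of those of Hbb-bt also occur in the other copy. The shares were 56.5% for Hba-a1 and 74.5% for Hba-a2. No source used here says how reads that fit both copies were counted, so each copy's own level is uncertain and the sum of a pair is the firmer value.

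Globin promoters carry a TATA box, a CCAAT box and a CACCC element, the last of which is the site of the erythroid factor KLF1. The 100 bases before the RefSeq start of Hbb-bs and of Hba-a2 (GRCm38.p6), 1 gene of each pair, are given 5′ to 3′ on the gene's strand with 3 motifs in capitals, the letters TATAA for the TATA box, CCAAT for the box of that name and CACCC for the KLF1 element.
Hbb-bs, chr7:103827929-103828028: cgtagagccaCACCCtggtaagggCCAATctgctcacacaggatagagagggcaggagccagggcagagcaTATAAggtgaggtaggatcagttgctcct
Hba-a2, chr11:32296392-32296491: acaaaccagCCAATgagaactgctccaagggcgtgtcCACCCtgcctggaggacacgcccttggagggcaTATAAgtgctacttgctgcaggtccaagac

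All 4 globin windows hold all 3 sets of letters. In Hbb-bs they begin at -90 (CACCC), -76 (CCAAT) and -29 (TATAA) from the start, while in Hba-a2 the order of the upstream elements is turned, with CCAAT at -91, CACCC at -63 and TATAA at -30. Searched on both strands, 155 of 32851 promoter windows of the same length (0.472%) hold all 3, and single shares were 10.2% for TATAA, 18.9% for CCAAT and 27.2% for CACCC. The Hba-a1 and Hba-a2 windows share a run of 97 bases, so they are not separate cases. GENCODE exons of the gene cover 100 bases of the Hba-a1 window, 73 of Hbb-bt, 17 of Hbb-bs and 3 of Hba-a2, so not every window lies wholly before the annotated gene. The Alas2 window holds neither TATAA nor CCAAT. It holds CACCC on the reverse strand at -40, -35 and -30, and GATAA, letters that the erythroid factor GATA1 can read, on the reverse strand at -86, against 8.5% of all windows with GATAA. These matches describe letters and show no binding.

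The libraries held 18457663 to 26981745 reads, of which 871 to 2853 came from the 4 globin genes, or 32.3 to 129.8 CPM (counts scaled to a common library total). Skeletal muscle fibre markers made up 197518 to 265206 CPM, which fits the labelled tissue. Liver markers stood at 10.2 to 34.6 CPM in 11 libraries but at 3990 in MHS replicate 2, 481 in MHS replicate 3, 239 in PHS replicate 1 and 180 in NCS replicate 2, so results are also given without these 4 libraries. The part of these transcripts in the results below was not tested.

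Beta globin from Hbb-bs was the most abundant of the 5 messages. Its level per length, as RPKM (CPM per kilobase of exons), averaged 50.6 over the 15 libraries. Hba-a1 averaged 21.6, Hba-a2 15.8 and Hbb-bt 8.66 on the same scale. How reads that fit both copies were counted is not known, so the order of the alpha copies is uncertain. Alas2 was the lowest, at 1.24. From here on, levels are normalized counts: reads divided by a size factor for the library. They are compared between libraries for 1 gene and never between genes.

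Hbb-bs had 447.1, 1150.6 and 1042.8 normalized counts in MHS muscle. It had 1069.7, 995.7 and 662.4 in MHE muscle. It had 674.5, 384.6 and 508.0 in PHS muscle, 1637.9, 769.1 and 864.6 in PHE muscle, and 737.7, 808.0 and 1367.1 in NCS muscle. All 3 PHS libraries lay below all 3 PHE and all 3 NCS libraries, while MHS replicate 1 lay inside the PHS range. The highest library, PHE replicate 1, held 4.26 times the level of the lowest, PHS replicate 2.

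Hbb-bt, the beta copy with fewer counted reads, had 67.1, 167.9 and 156.7 normalized counts in MHS muscle. It had 162.9, 176.1 and 111.5 in MHE muscle. It had 122.1, 41.2 and 57.1 in PHS muscle, 279.2, 108.4 and 146.9 in PHE muscle, and 97.5, 132.3 and 226.1 in NCS muscle. PHS replicates 2 and 3 were the lowest of all libraries, but PHS replicate 1 stood inside the ranges of PHE and NCS, so those groups overlap for this gene.

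Hba-a1 had 209.6, 519.5 and 475.5 normalized counts in MHS muscle. It had 443.8, 376.4 and 320.0 in MHE muscle. It had 274.4, 183.4 and 228.4 in PHS muscle, 760.5, 331.0 and 392.4 in PHE muscle, and 263.2, 554.5 and 591.9 in NCS muscle. PHS lay wholly below PHE and below MHE, and it overlapped NCS through NCS replicate 1.

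Hba-a2 had 109.0, 333.1 and 326.3 normalized counts in MHS muscle. It had 257.5, 219.8 and 180.3 in MHE muscle. It had 163.1, 94.5 and 135.9 in PHS muscle, 467.7, 193.2 and 224.2 in PHE muscle, and 176.8, 327.3 and 354.2 in NCS muscle. Here all PHS libraries lay below all PHE, NCS and MHE libraries.

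Alas2 had 26.1, 87.9 and 92.9 normalized counts in MHS muscle. It had 63.1, 72.9 and 49.6 in MHE muscle. It had 62.4, 17.8 and 29.5 in PHS muscle, 126.0, 57.7 and 79.0 in PHE muscle, and 53.9, 56.6 and 129.9 in NCS muscle. PHS replicates 2 and 3 and MHS replicate 1 were the 3 lowest libraries, and PHS replicate 1 overlapped both PHE and NCS. The smallest number of Alas2 reads in a library was 22, so this gene carries the most counting error of the 5.

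**Figure D1:**
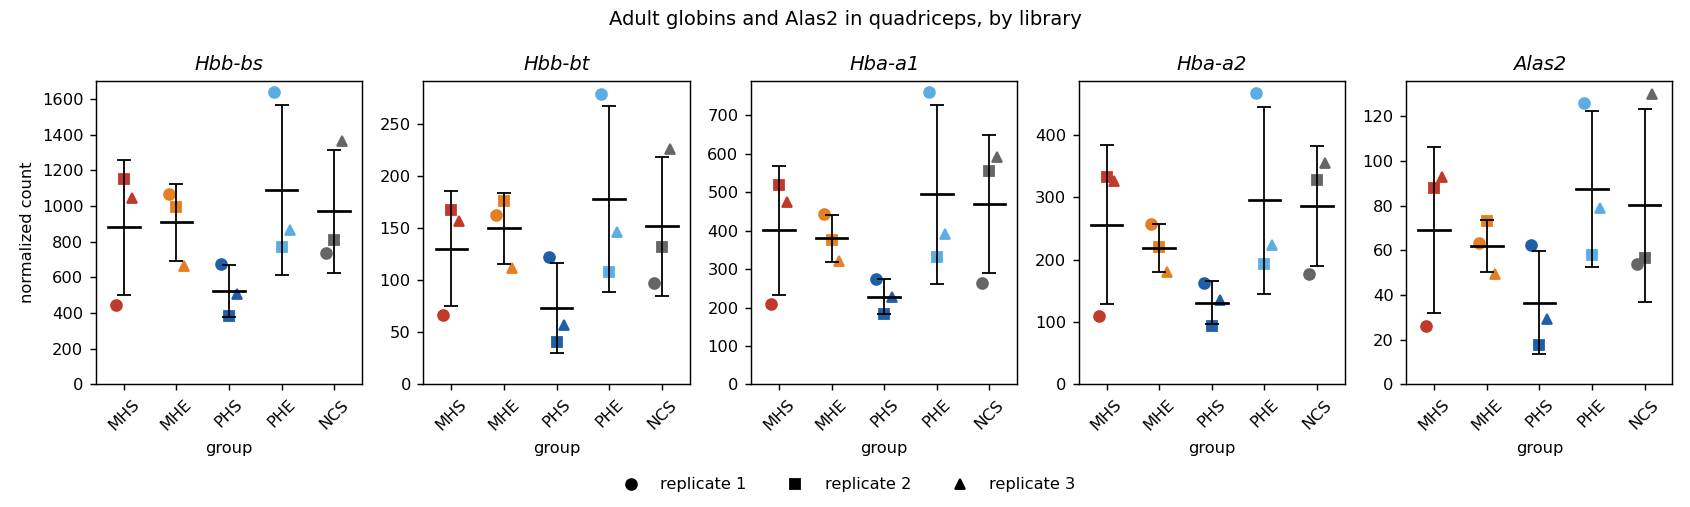
Normalized counts (y axis) of the 5 genes in each library, with the groups on the x axis in the order MHS, MHE, PHS, PHE, NCS; points are libraries and the mean and SD of 3 libraries are marked. The same libraries are high in all 5 genes (PHE replicate 1 and NCS replicate 3) or low in them (PHS replicate 2 and MHS replicate 1), and PHS has the lowest mean of each gene.

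The order of the group means was alike over the 5 genes, with PHE highest, NCS second and PHS lowest in each. Hbb-bs averaged 880 ± 379 in MHS, 909 ± 217 in MHE, 522 ± 145 in PHS, 1091 ± 476 in PHE and 971 ± 345 in NCS (SD, n = 3 each). Alas2 averaged 69.0 ± 37.2 in MHS, 61.9 ± 11.7 in MHE, 36.6 ± 23.1 in PHS, 87.6 ± 34.9 in PHE and 80.1 ± 43.1 in NCS (SD, n = 3 each). Neighbours in that order overlapped for every gene, except MHE and PHS for Hba-a1 and Hba-a2. The share of all genes without overlap was not counted for MHE and PHS. In the pairs counted, 2.64% to 11.7% of all genes lay apart in a given direction, and the alpha copies vary together. A test for any difference among the 5 groups (limma, moderated F) passed for none of the 5 genes, with adjusted p = 0.715 to 0.716. Over all 13499 genes with a mean of at least 10 normalized counts, it called 0% after adjustment and gave 906 genes an unadjusted p under 0.05.

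With a high-fat father and a sedentary dam, all 5 messages averaged lower than in the controls, at 0.456 to 0.538 times the NCS mean, but none passed the test after adjustment. The ratio of PHS to NCS means was 0.538 for Hbb-bs, 0.483 for Hbb-bt, 0.487 for Hba-a1, 0.458 for Hba-a2 and 0.456 for Alas2. On the log2(normalized count + 1) scale, the difference PHS minus NCS was -0.88 ± 0.37 (SE) for Hbb-bs with adjusted p = 0.92 (limma). It was -1.10 ± 0.45 for Hbb-bt, -0.97 ± 0.37 for Hba-a1, -1.09 ± 0.42 for Hba-a2 and -1.17 ± 0.51 for Alas2, with adjusted p = 0.92 in each. The share of tested genes called after adjustment was 0%, as for the 5 genes. Before adjustment, 5 of the 5 genes were lower at p under 0.05, beside 1.41% of all genes tested (197 higher, 190 lower), and since the 5 move together these are not separate observations. With total reads as the scaling it was 2 of 5, with 312 of all genes higher and 82 lower and a median over all genes of 0.104. It was 4 of 5 in edgeR. Hbb-bs and Hba-a2 had no overlap between PHS and NCS, beside 3.05% of all genes that were lower without overlap. The median difference of the 5 genes was -1.091, beside 0.006 over all genes tested. Single libraries decided that count: 0 of the 5 genes kept it without PHS replicate 2 or without NCS replicate 3, 2 did without PHS replicate 3 and 3 without NCS replicate 2. Hbb-bs was at -0.60 without NCS replicate 3. With the first part of the sample code as a covariate, the differences lay between -0.40 and -0.13, their median was -0.257 and 0 of the 5 genes were at p under 0.05. Standard errors in that fit were 0.78 to 1.12, against 0.37 to 0.51 without the covariate. It is thus too imprecise to decide whether the difference remains. Without the 4 libraries with liver transcripts, the differences PHS minus NCS lay between -1.82 and -0.94. Only PHS replicates 2 and 3 and NCS replicates 1 and 3 were then left. MHS kept only replicate 1 in that fit, so only the sizes are given.

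Between exercised and sedentary dams mated to high-fat fathers, the 5 messages were higher with exercise by similar factors, again with none past the test after adjustment. The ratio of PHE to PHS means was 2.09 for Hbb-bs, 2.43 for Hbb-bt, 2.16 for Hba-a1, 2.25 for Hba-a2 and 2.39 for Alas2. The log2 difference PHE minus PHS was 1.01 ± 0.37 (SE) for Hbb-bs with adjusted p = 0.991 (limma). It was 1.30 ± 0.45 for Hbb-bt, 1.03 ± 0.37 for Hba-a1, 1.08 ± 0.42 for Hba-a2 and 1.35 ± 0.51 for Alas2, with the same adjusted p. The share called after adjustment was 0% over all genes. Before adjustment, 5 of the 5 were higher at p under 0.05, beside 1.84% of all genes (248 higher, 260 lower), and 3 of them (Hbb-bs, Hba-a1 and Hba-a2) did not overlap, beside 5.11% of all genes that were higher without overlap. With total reads as the scaling it was again 5 of 5, with 56 of all genes higher and 492 lower. With the sample code as a covariate the differences were 0.56 to 0.77, with a median of 0.602, and 0 of the 5 genes were at p under 0.05. Standard errors there were 0.62 to 0.89, against 0.37 to 0.51 without the covariate, so that fit cannot decide whether the difference remains. This comparison and the one before it share the PHS libraries, so low PHS values enter both. Without PHE replicate 1, the library with the most globin, the median difference of the 5 genes was 0.697, and it was 1.085 with all libraries, beside 0.010 over all genes tested. Without PHE replicate 1 or without PHS replicate 2, 0 of the 5 genes were at p under 0.05 before adjustment. Without the 4 libraries with liver transcripts, when PHS replicates 2 and 3 alone stood for PHS, the differences were 1.17 to 1.81.

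**Figure D2:**
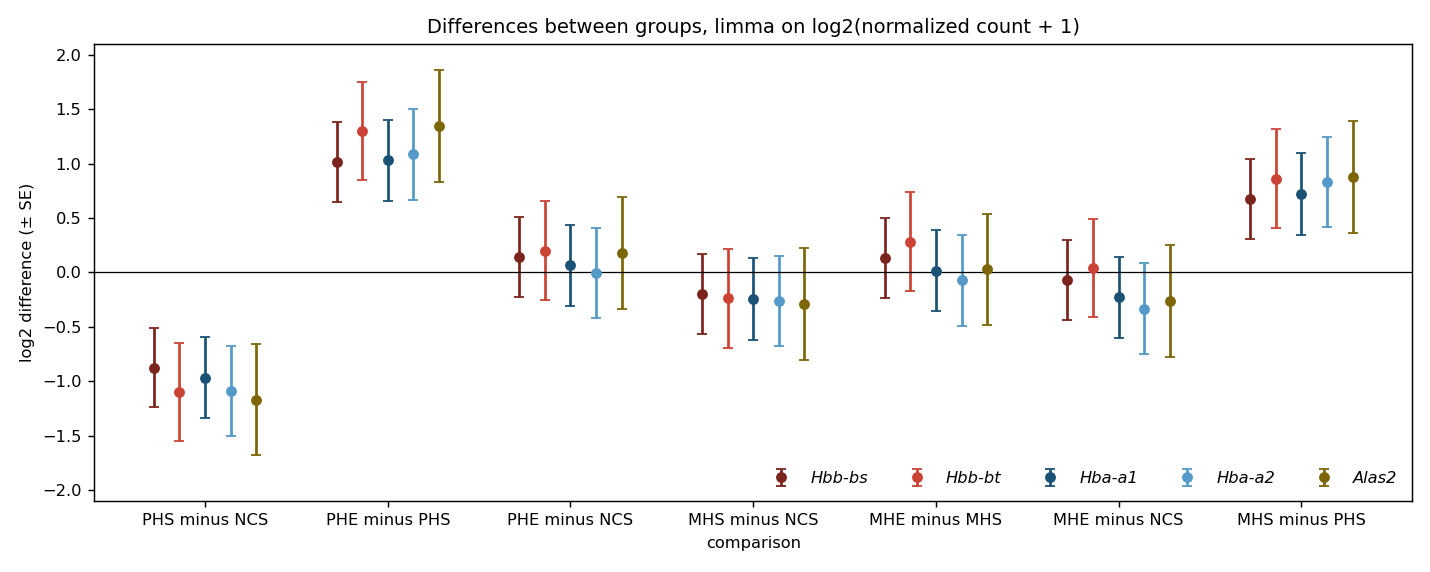
Log2 differences (y axis) of the 5 genes, as colours, with their standard errors for each comparison of 2 groups (x axis), from limma on log2(normalized count + 1); the line at 0 is no difference. PHS minus NCS lies below 0, PHE minus PHS and MHS minus PHS lie above 0 for all 5 genes, and the 4 comparisons without PHS lie between -0.33 and 0.28, with no gene past the adjusted threshold in any of them.

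With all libraries, the comparisons without PHS gave differences between -0.33 and 0.28. PHE minus NCS ran from -0.01 to 0.20 over the 5 genes, with adjusted p = 0.858 to 0.996 in limma and 0% of all genes called. In the maternal arm, MHS minus NCS ran from -0.29 to -0.20 (limma adjusted p = 1, with 0% of genes called). MHE minus MHS ran from -0.07 to 0.28 (limma adjusted p = 0.803 to 0.988, with 0% called), and MHE minus NCS from -0.33 to 0.04 (limma adjusted p = 0.806 to 0.98, with 0% called). Standard errors were 0.37 to 0.51, so these values do not show that the groups are alike. These results turn on single libraries: the MHS group holds 1 library with low globin, replicate 1, and it is the only MHS library without liver transcripts. Without MHS replicate 1 the median of MHS minus NCS was 0.230 in place of -0.245, and without the 4 libraries with liver transcripts, when replicate 1 alone stood for MHS, it was -1.166, as large as that of PHS minus NCS without them, -1.182. MHE minus MHS then ran from 0.84 to 1.20, with a median of 0.992. Within MHS and PHS, the libraries with liver transcripts were those with the higher globin, and whether the liver transcripts had a part in this was not tested.

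The maternal and paternal arms were also set against each other directly. MHS minus PHS was 0.67 for Hbb-bs and 0.88 for Alas2, with adjusted p = 0.723 in limma for each of the 5 genes, and 0% of all genes were called. The difference of the exercise differences, (MHE minus MHS) minus (PHE minus PHS), was -0.88 for Hbb-bs and -1.32 for Alas2, with adjusted p = 0.999 in limma and 0% of all genes called. The arms were thus not shown to differ. Without the 4 libraries with liver transcripts, MHS minus PHS ran from -0.06 to 0.46, and the median of the difference of differences was -0.329 in place of -1.020, with 1 library left in MHS. Without MHS replicate 1 instead, MHS minus PHS ran from 1.10 to 1.46 (adjusted p = 0.173 to 0.394 in limma). The median of the difference of differences was then -1.441 (adjusted p = 0.773 to 0.942 in limma). In each, 5 of the 5 genes, which move together, were at p under 0.05 before adjustment. Beside them, 5.78% of all genes tested were higher in MHS minus PHS, against 2.83% with all libraries. In the difference of differences, 2.98% of all genes were lower, against 0.748% with all libraries.

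The 5 messages varied together from library to library. Over the 15 libraries, Pearson's r of log2 levels for the 10 pairs lay between 0.889 (Hba-a1 and Alas2) and 0.989 (Hba-a1 and Hba-a2). Spearman's rho lay between 0.861 and 0.993. The two-sided permutation p of r was 1e-05 for each pair, the smallest that 100000 resamples can give, and 1e-05 after Benjamini-Hochberg adjustment over the 10 pairs; that of rho was at most 9e-05. After the 2 libraries farthest from the median were left out, r was 0.83 to 0.982. After group means were subtracted it was 0.82 to 0.984, so the libraries also varied together within groups. Copies in a pair share much of their sequence, and how reads that fit both were counted is not known. This can bear on r within a pair but not on r between alpha, beta and Alas2.

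Within groups, the 5 genes varied more than most. Their SD within groups on the log2 scale was 0.54 for Hbb-bs, 0.65 for Hbb-bt, 0.54 for Hba-a1, 0.60 for Hba-a2 and 0.73 for Alas2, against a median of 0.26 over the genes tested. Counting error alone would give 0.051 for Hbb-bs and 0.194 for Alas2. Between 86.8% (Hbb-bs) and 94.3% (Alas2) of tested genes had a smaller SD.

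The ratio of chains was steadier than their amount. Beta globin reads were 1.496 to 1.97 times alpha globin reads in 14 libraries. NCS replicate 2 stood apart with a ratio of 1.07, from 931 beta and 873 alpha reads. It is also a library with liver transcripts (180 CPM) and had only 17699 genes with a read, against a median of 19533. MHS replicate 3 had more liver transcripts (481 CPM) and fewer genes with a read (17581), but a ratio of 1.496. Why NCS replicate 2 stood apart was not tested. Alas2 gave 2.53 to 5.12 reads per 100 globin reads, lowest in PHS replicate 2 and highest in NCS replicate 3. Group means of this ratio lay at 3.94 ± 0.761 in MHS, 3.76 ± 0.444 in MHE, 3.59 ± 1.31 in PHS, 4.32 ± 0.459 in PHE and 4.15 ± 1.01 in NCS (SD, n = 3 each), and PHS spanned the ranges of MHS, MHE and PHE.

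**Figure D3:**
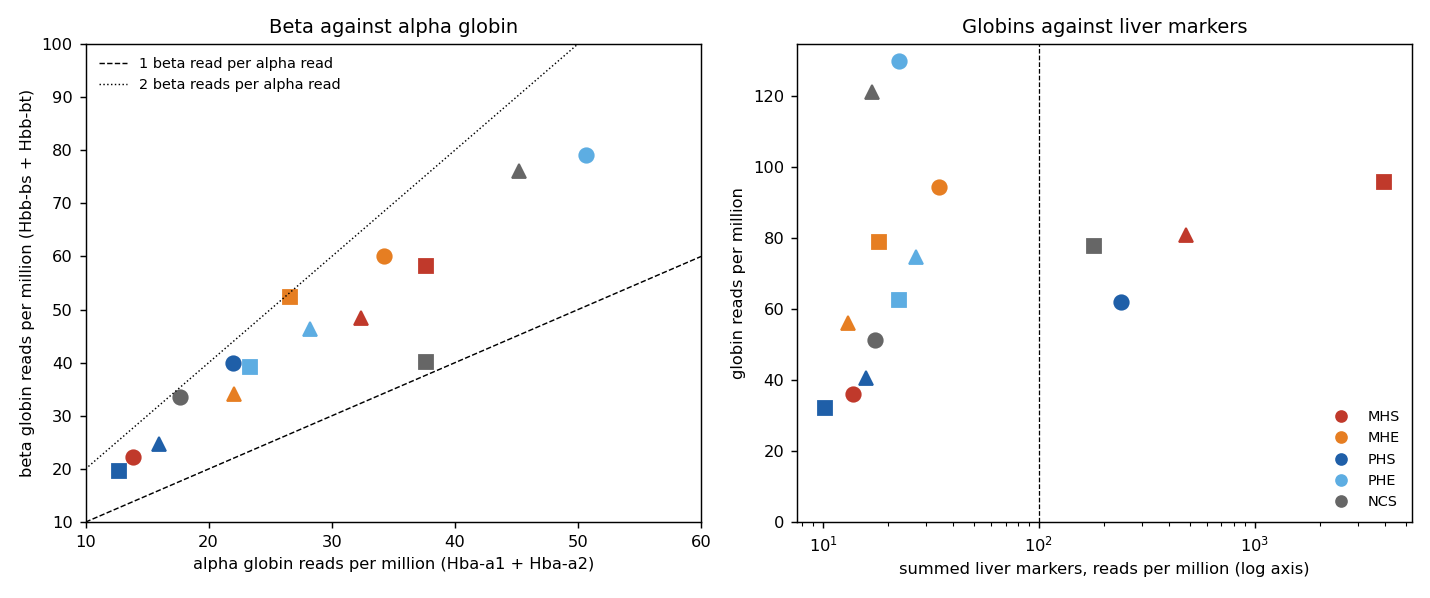
Left, beta globin CPM (y axis) against alpha globin CPM (x axis) for the 15 libraries, coloured by group, with circles, squares and triangles for replicates 1, 2 and 3 and lines at 1 and 2 beta reads per alpha read; NCS replicate 2 lies near the lower line at 1.07 and the other 14 at 1.496 to 1.97. Right, the sum of globins against the sum of liver markers, both in CPM (log x axis), with a dashed line at 100; the 4 libraries to its right hold 62.0 to 95.8 globin CPM and the 11 to its left 32.3 to 129.8.

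Hbb-bt made up 9.68% to 15.3% of beta reads. The lowest shares were in PHS replicate 2, at 9.68% (95% exact Clopper-Pearson interval 7.29% to 12.5%), and PHS replicate 3, at 10.1% (7.76% to 12.9%), but PHS replicate 1 had the highest, at 15.3% (13.02% to 17.9%). Hba-a2 made up 34.0% to 40.7% of alpha reads. Lowest was PHS replicate 2 at 34.0% (29.0% to 39.3%) and highest MHS replicate 3 at 40.7% (37.1% to 44.3%), so these intervals overlap. The intervals cover counting error only, since the reads carry no molecular identifiers.

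**Figure D4:**
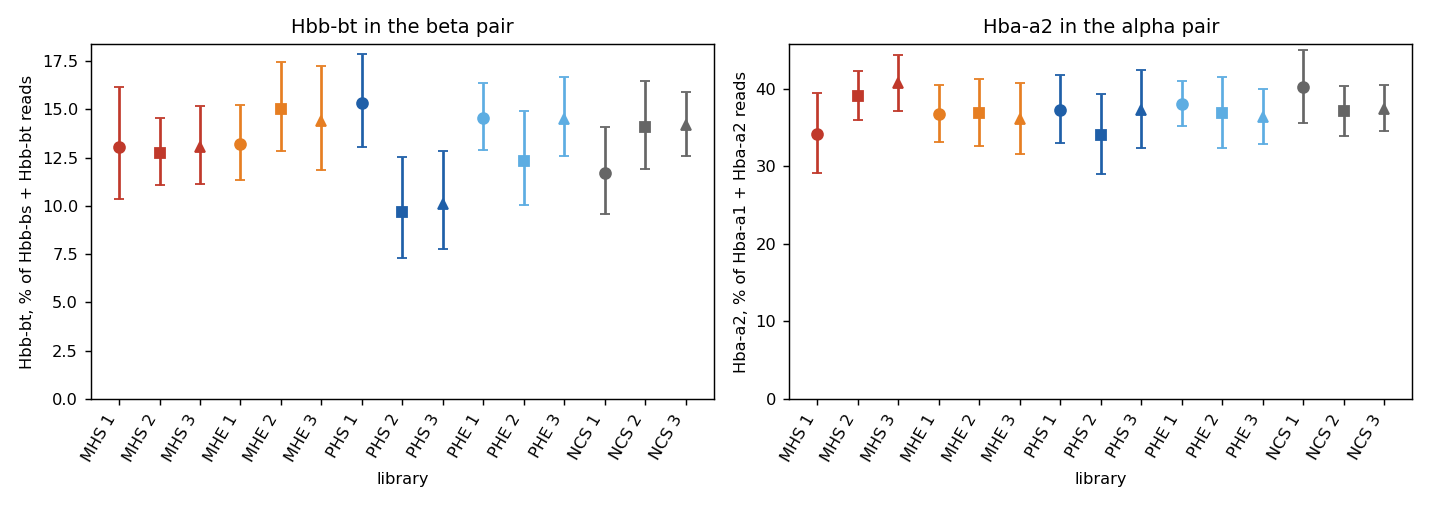
Share of Hbb-bt in beta reads (left) and of Hba-a2 in alpha reads (right), in percent on the y axis, for each library with its 95% exact binomial interval. PHS replicates 2 and 3 have the lowest Hbb-bt shares (9.68% and 10.1%) and PHS replicate 1 the highest (15.3%), while Hba-a2 shares lie between 34.0% and 40.7%.

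Several messages of red cell precursors were at or near 0. Gata1, the master regulator of the lineage, had 0 to 1 reads per library. Klf1 had 2 to 12, and Slc4a1, which encodes the band 3 anion exchanger, 0 to 10. Of the 9 measured embryonic, theta and pseudogene globins, 6 had no read in any library, which does not show that they are absent. The highest count was 4 reads, for Hba-ps4. Of 12 erythroid membrane genes only Sptb had a mean of at least 10 normalized counts. It had 12700 to 18258 reads, and the beta spectrin it encodes is also a protein of muscle fibres.

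All 8 other enzymes of haem synthesis were tested, and none passed in any comparison. In PHS minus NCS, 3 had positive and 5 negative differences around a median of -0.136. In PHE minus PHS their median was -0.025. Alas1, which encodes the form of the first enzyme used outside red cells, averaged 1712 ± 102 normalized counts in PHS and 1948 ± 376 in NCS (SD, n = 3 each). In MHE minus MHS, Alas1 was -0.44 ± 0.13 with adjusted p = 0.516 in limma. All 8 enzymes had negative differences there, with a median of -0.213, beside 0.002 over all genes tested. MHS replicates 2 and 3 hold liver transcripts, and the part of these in the values was not tested.

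Of 13 genes of iron and haem transport, none passed. Their median was 0.009 in PHS minus NCS and 0.110 in PHE minus PHS. Slc40a1, which encodes the iron exporter ferroportin, averaged 1915 ± 694 normalized counts in PHE and 971 ± 402 in NCS (SD, n = 3 each), a difference of 0.99 ± 0.36 with adjusted p = 0.305 in limma. Ftl1, the ferritin light chain, averaged 1046 ± 287 in MHS and 658 ± 135 in NCS (SD, n = 3 each), a difference of 0.65 ± 0.23 with adjusted p = 1 in limma, and 2 of the 3 MHS libraries hold liver transcripts. None of 7 genes of haem breakdown and clearance passed, with medians of 0.068 and -0.114 in the paternal comparisons above. Of 10 tested genes of the erythroid cytosol and reticulocytes, none passed, and 3 had positive and 7 negative differences in PHS minus NCS, with a median of -0.056. Of 9 genes of erythroid transcription, 4 were tested (Tal1, with 25 to 67 reads per library, Zfpm1 with 83 to 200, Lmo2 with 31 to 102 and Lyl1 with 20 to 51). None passed, and their differences in PHS minus NCS were 0.025 to 0.223, with a median of 0.107. Mb, the oxygen store of muscle, averaged 34509 ± 11933 normalized counts in PHE and 48001 ± 6492 in PHS (SD, n = 3 each), a difference of -0.53 ± 0.25, opposite in sign to the blood globins, with adjusted p = 0.991 in limma.

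Other cells that come with blood and vessels were checked through their markers. The sum of 10 neutrophil markers lay at 0.927 to 2.01 CPM in PHS, 0.778 to 1.79 in PHE and 0.474 to 1.64 in NCS. The sum of 12 platelet markers lay at 7.42 to 8.59 in PHS, 6.23 to 6.93 in PHE and 6.63 to 6.90 in NCS. Most of that sum came from Gp1ba and Itga2b, with means of 97.9 and 42.4 normalized counts over all libraries. Pf4, which encodes a platelet chemokine, averaged 10.965 in PHS and 14.9 in NCS, opposite to the platelet sum. Of the 3 platelet genes tested, 2 had positive and 1 a negative difference in PHS minus NCS, with a median of 0.135. In PHE minus PHS all 3 were negative, with a median of -0.178. The sum of 12 lymphocyte and monocyte markers lay at 9.67 to 15.03 CPM in PHS, 7.86 to 10.2 in PHE and 9.48 to 10.8 in NCS. The sum of 14 endothelial markers lay at 732 to 771 in PHS, 578 to 771 in PHE and 612 to 824 in NCS. Of these markers 1 neutrophil, 2 lymphocyte and monocyte, 3 platelet and 14 endothelial genes had levels high enough to test, and none of them passed. The sums are in CPM and so scaled by total reads. With that scaling the median difference over all genes was 0.104 in PHS minus NCS, against 0.006 with size factors. In PHE minus PHS it was -0.075, against 0.010. How far the scaling bears on the marker sums was not tested. The part of such cells in the globin values was not tested either.

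The genes most like the mean of the 4 globins over the 15 libraries, on the log2 scale, were Gm5884 (r = 0.77), Mrps6 (0.766), Apcdd1 (0.685), Krt8 (0.676), Mas1 (0.669), Twnk (0.659), Ap3b1 (0.652), Myo1d (0.645) and Pgpep1l (0.637). Those most like Alas2 were Mrps6 (0.787), Gm5884 (0.71), Cd247 (0.705), Supt3 (0.703) and Mas1 (0.701). They were picked as the highest of all tested genes, and every one lies below the lowest r between the 5 genes, 0.889. Krt8 ran from 0 normalized counts in MHS replicate 1 to 92.3 in MHS replicate 2, the library with the most liver transcripts. The part of these transcripts in its r was not tested.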

How the data were processed

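Per the submitters' processing notes, reads were handled with STAR 2.5.2b, featureCounts 1.5.2 and DESeq2 1.11.8 on mm10; per the labels' protocols, ribosome-depleted stranded libraries were read as single 100 bp reads. The deposited signal is a table of gene counts that the authors divided by a size factor per library. Whole reads were recovered from it (100% of values within 0.001 of a read) and used for depths, shares and count tests. Identifiers of 50376 of 50686 genes (99.4%) matched GENCODE M21. The main test was limma 3.58.1 with trend (R 4.3.3) on log2(value + 1) for the 13499 genes whose mean reached 10, all 15 libraries in 1 fit, with Benjamini-Hochberg adjustment over all genes and a threshold of 0.05. The test was tried on simulated data. Alternatives were edgeR 4.0.16, DESeq2 1.42.0, voom, other scalings, pseudocounts and filters, summed copies, a covariate and left-out libraries. Liver libraries are those above 100 CPM over 20 markers. Named list genes are those past the threshold, else up to 2 per list and comparison by p, and defining genes; likeness takes the 10 and 5 genes of highest r; a few genes these rules pick are not reported here. The 5 genes and the lists were chosen with earlier results of these data known. Sequences are from GENCODE M21 transcripts and RefSeq promoters. Python 3.11.15 and scipy 1.17.1 gave permutation tests and intervals.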

Additional observations from a re-analysis of the deposited data

How the results depend on the processing

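No paired analysis was possible because the replicate numbers are only names. None of the 5 genes was called under any of 29 alternatives; edgeR called 0 genes at all, and DESeq2 called 18 in MHS minus NCS, 60 in MHE minus MHS, 1 in PHE minus PHS, 67 in PHE minus NCS and 186 over the 5 groups. The sample code as covariate called 16 in MHE minus MHS, 11 in PHE minus PHS and 1 in the difference of differences. With that covariate, MHS minus NCS, MHE minus NCS and MHS minus PHS could not be estimated. The reason is that no code is common to the maternal groups and the other groups. Fits without MHS replicate 1 called 109 in MHE minus MHS, and 1 gene each was called without MHS replicate 3 (MHS minus NCS), PHS replicate 3 (PHE minus PHS) and NCS replicate 3 (PHE minus NCS). In the count that follows, the summed value of a pair stands for each of its copies. Of 1145 log2 differences recomputed, 62 changed direction: 1 of 575 in PHS minus NCS, PHE minus PHS, MHS minus PHS and the difference of differences, and 61 of 570 in the other 4 comparisons. The cause was not tested. Without the libraries with liver transcripts, medians were -1.166 (MHS minus NCS), 0.992 (MHE minus MHS), 0.034 (MHS minus PHS) and -0.329 (difference of differences), and turned values were Hba-a2 at 0.986 (MHE minus MHS), -0.056 (MHS minus PHS) and 0.123 (PHE minus NCS), Hbb-bt at -0.012 (MHE minus NCS) and Alas2 at -0.01 (PHE minus NCS). With the sample code as covariate, the PHS minus NCS median was -0.257, that of PHE minus PHS 0.602, MHE minus MHS was -0.294 (Hbb-bs), -0.116 (Hbb-bt), -0.22 (Hba-a1) and -0.269 (Alas2), and PHE minus NCS was 0.264 (Hba-a2). Scaling by total reads gave Hba-a2 0.031 (MHE minus MHS) and 0.007 (PHE minus NCS), and Hbb-bs 0.006 (MHE minus NCS). It put the median of all genes at 0.186 in the difference of differences, against -0.002 as reported. For MHE minus MHS, Hba-a1 was -0.085 in edgeR and -0.083 in DESeq2, and the alpha pair with copies summed was -0.02. Alas2 was -0.165 in edgeR and -0.161 in DESeq2. For MHE minus NCS, Hbb-bt was -0.033 in edgeR and -0.024 in DESeq2, and the beta pair with copies summed was -0.054. For PHE minus NCS, Hba-a2 was 0.023 in edgeR and 0.035 in DESeq2, and the alpha pair with copies summed was 0.038. Leaving out 1 library at a time, MHS minus NCS ranged from -0.451 to 0.23 (Hbb-bs), -0.513 to 0.181 (Hbb-bt), -0.619 to 0.168 (Hba-a1), -0.576 to 0.268 (Hba-a2) and -0.602 to 0.295 (Alas2). MHE minus MHS ranged from -0.299 to 0.382 (Hbb-bs), -0.137 to 0.518 (Hbb-bt), -0.399 to 0.254 (Hba-a1), -0.602 to 0.2 (Hba-a2) and -0.557 to 0.34 (Alas2). MHE minus NCS ranged from -0.239 to 0.205 (Hbb-bs), -0.23 to 0.372 (Hbb-bt) and -0.484 to 0.144 (Alas2). PHE minus NCS ranged from -0.196 to 0.414 (Hbb-bs), -0.179 to 0.53 (Hbb-bt), -0.309 to 0.305 (Hba-a1), -0.394 to 0.242 (Hba-a2) and -0.121 to 0.583 (Alas2). Medians ranged from -1.375 to -0.763 (PHS minus NCS), 0.697 to 1.333 (PHE minus PHS), 0.528 to 1.283 (MHS minus PHS), -1.441 to -0.658 (difference of differences), -0.513 to 0.230 (MHS minus NCS), -0.399 to 0.311 (MHE minus MHS), -0.484 to 0.144 (MHE minus NCS) and -0.196 to 0.414 (PHE minus NCS).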
